A study of Mus musculus with 9 samples.

Results

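Transcription factors of blood vessels and meninges were followed in cells sorted from the dentate gyrus (DG) and the subventricular zone (SVZ), the 2 regions of the adult mouse brain in which neurons are made throughout life. The genes are Erg, Fli1, Sox17 and Sox18, which act in endothelial cells, Ebf1, which is known from pericytes, and Zic1, Snai2, Alx1 and Lmx1a, which are known from meninges, mesenchyme and the dorsal midline. They were chosen by their difference between the regions in these same libraries, and 8 of the 9 had a row among the 14477 genes of the table. Sox17 was not analysed here. The cells came from adult mice of the line B6.Cg-Tg(Nes-EGFP)1Yamm, untreated and in standard housing, and all animals carried the same transgene. In it, regulatory sequence of the Nestin gene drives green fluorescent protein, so that any cell in which this sequence is active can enter the sort, including cells that are not neural precursors. The question is how fluorescent cells of the DG (5 libraries) differ from fluorescent cells of the SVZ (4 libraries). Whether a library is 1 animal or a pool is not stated, so the spread between libraries may be technical in part. In 6 of the 9 libraries, Xist of the inactive X chromosome and the Y-linked gene Ddx3y both had over 100 reads.

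ETS factors such as Erg and Fli1 bind DNA through a winged helix domain and hold endothelial cells in their identity. SoxF factors (Sox7, Sox17 and Sox18) bind through an HMG box and act in the growth of arteries, veins and lymphatic vessels. Early B cell factors such as Ebf1 were first described in lymphocytes and are also known from mural cells, the pericytes and smooth muscle cells that wrap vessels. Zic and Snail family proteins are zinc finger factors. Zic1 is known from the meninges and from neural precursors, and Snai2 represses epithelial genes as cells become mesenchymal. Alx1 is a homeobox factor of head mesenchyme and Lmx1a a LIM homeobox factor of the roof plate and the cortical hem.

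The libraries held 33627909 to 41164044 reads in DG and 31126803 to 32528255 reads in SVZ, and 1 read was worth 0.0243 to 0.0321 CPM, the reads of a gene scaled to a common library total. Levels are given as reads, as CPM, or as log2 CPM with a prior count of 1 read, and an error is the SD of the libraries of a region (DG n = 5, SVZ n = 4). Nes itself was at 5.89 to 6.99 log2 CPM in DG and 6.87 to 7.61 in SVZ. The granule cell factor gene Neurod1 was at 8.86 to 9.42 in DG and 3.16 to 4.06 in SVZ. The factor gene Dlx1 of the ventral forebrain was at 1.88 to 6.14 in DG and 8.82 to 9.18 in SVZ, and the DG maximum was in DG 2. Among the DG libraries, DG 3 had the highest summed CPM of 18 endothelial markers (3747 against 1895 to 2474 in the others) and DG 5 the lowest of 12 pericyte markers (6148 against 7933 to 13117). Among the SVZ libraries, SVZ 1 had the highest sum for both lists (129 against 29.0 to 34.5, and 157 against 58.2 to 81.9).

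Start regions were in RefSeq (GRCm38.p6) for 4 of the 8 measured genes, and 5 of their 7 windows are shown, because the annotated start regions differ in base composition and motifs. Which start is used in these cells was not measured. Each runs from 250 bases before the start site to 50 bases after it, 5′ to 3′ on the strand of the gene, and capitals mark a match to a motif searched on both strands. The motifs were the ETS motifs CCGGAAG and AGGAAG, the SOX motif AACAAT, the E-box CAGGTG that Snail proteins recognise, the EBF motif (TCCC and GGGA parted by 2 bases), the homeobox motif TAATTA, the GC box GGGCGG and TATAAA. They are the downstream start of Erg (chr16:95459299-95459598, minus strand), its middle start (chr16:95530316-95530615, minus strand), Ebf1 (chr11:44617850-44618149, plus strand), Zic1 (chr9:91365719-91366018, minus strand) and Lmx1a (chr1:167689308-167689607, plus strand).
Erg downstream start: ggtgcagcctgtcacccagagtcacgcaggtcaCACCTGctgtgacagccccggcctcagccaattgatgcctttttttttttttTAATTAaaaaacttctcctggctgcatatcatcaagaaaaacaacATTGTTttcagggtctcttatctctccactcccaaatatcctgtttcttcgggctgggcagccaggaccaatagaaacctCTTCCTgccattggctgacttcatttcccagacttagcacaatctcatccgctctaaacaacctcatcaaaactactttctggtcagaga
Erg middle start: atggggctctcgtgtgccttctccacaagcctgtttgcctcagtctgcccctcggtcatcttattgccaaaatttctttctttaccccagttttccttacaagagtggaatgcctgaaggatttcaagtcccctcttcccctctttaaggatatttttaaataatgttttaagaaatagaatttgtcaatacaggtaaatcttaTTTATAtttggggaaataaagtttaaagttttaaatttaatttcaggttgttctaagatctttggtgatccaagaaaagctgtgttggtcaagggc
Ebf1: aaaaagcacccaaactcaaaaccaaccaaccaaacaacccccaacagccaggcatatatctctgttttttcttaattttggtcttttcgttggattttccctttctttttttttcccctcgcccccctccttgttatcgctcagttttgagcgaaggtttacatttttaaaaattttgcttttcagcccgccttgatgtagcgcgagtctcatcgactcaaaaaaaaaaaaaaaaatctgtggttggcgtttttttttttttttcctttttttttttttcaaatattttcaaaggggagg
Zic1: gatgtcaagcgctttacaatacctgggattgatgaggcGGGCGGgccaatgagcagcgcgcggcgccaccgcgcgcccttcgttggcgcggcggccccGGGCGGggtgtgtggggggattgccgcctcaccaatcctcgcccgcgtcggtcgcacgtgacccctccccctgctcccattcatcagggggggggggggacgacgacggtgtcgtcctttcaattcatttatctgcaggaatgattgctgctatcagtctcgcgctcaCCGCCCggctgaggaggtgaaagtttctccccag
Lmx1a: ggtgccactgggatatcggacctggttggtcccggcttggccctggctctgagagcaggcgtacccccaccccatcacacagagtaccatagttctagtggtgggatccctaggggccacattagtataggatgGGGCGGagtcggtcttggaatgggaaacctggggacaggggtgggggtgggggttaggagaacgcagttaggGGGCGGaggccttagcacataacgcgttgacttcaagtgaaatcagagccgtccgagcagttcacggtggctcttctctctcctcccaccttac

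The downstream Erg window held 1 ETS motif (AGGAAG), 1 SOX motif, 1 E-box and 1 homeobox motif, the middle one held only TATAAA, and an upstream window that is not shown held a homeobox motif and a GC box. Of all 32851 RefSeq windows, 35.4% held AGGAAG, 10.7% the SOX motif, 20.2% this E-box and 5.29% the homeobox motif, and 13.6% held TATAAA. Zic1 had 3 GC boxes and Lmx1a had 2, a motif found in 35.7% of windows. The Zic1 window was 65.3% G and C and that of Lmx1a 59.3%, against 36.7% for the Ebf1 window shown, 53.0% for a second Ebf1 window (chr11:44619978-44620277) and a median of 52.7% over all windows. The Ebf1 window shown held none of the 8 motifs searched. CCGGAAG (8.86% of windows) and the EBF motif (0.904%) occurred in none of the 5. These matches describe letters in the windows and say nothing about binding.

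All 8 measured factors had more reads in every DG library than in any SVZ library, after scaling to the library totals. The genes were chosen with this contrast in view, so their differences are described and not tested, and 29.7% of all genes also had every DG library above every SVZ library and 28.3% had every one below. Of the 8, Ebf1, Zic1 and Fli1 exceeded 1 CPM in all 4 SVZ libraries. The other 5 exceeded it in no SVZ library. Every gene of the table exceeds 1 CPM in at least 3 libraries, so these 5 are in it only through their DG level and could not have appeared without a difference. Fewer cells of a type and less RNA of a gene per cell cannot be told apart in sorted bulk cells.

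**Figure D1:**
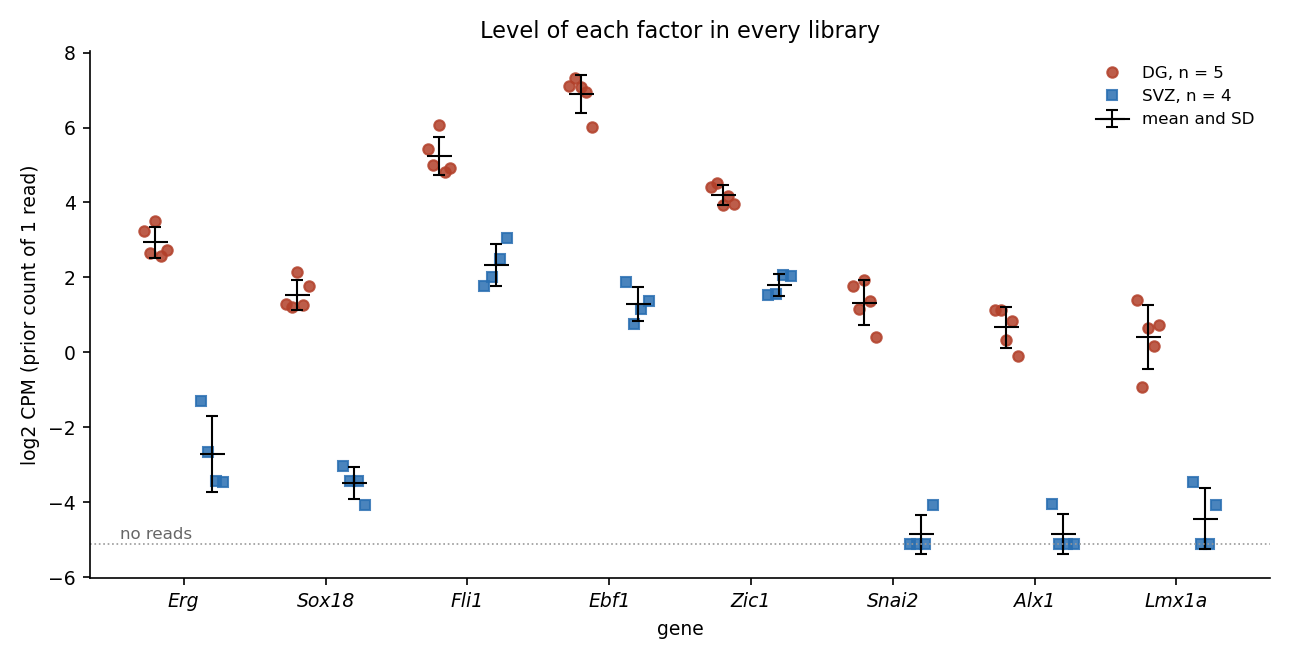
Level of each measured factor (log2 CPM, prior count of 1 read) in the 5 DG libraries (circles) and the 4 SVZ libraries (squares), with mean and SD in black and a dotted line at the value of a gene without reads. All DG points lie above all SVZ points of the same gene, and the SVZ points of Snai2, Alx1 and Lmx1a lie at 0 to 2 reads.

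Levels were set in order per length of exon, as RPKM, which is CPM per kilobase of exon. In DG, Ebf1 (12.7 ± 3.7 RPKM) and Fli1 (11.5 ± 4.65) stood highest and did not differ from each other beyond their spread. Zic1 (3.27 ± 0.61), Erg (2.28 ± 0.68), Sox18 (1.84 ± 0.56) and Snai2 (1.31 ± 0.49) followed. The ranges of mean ± SD overlapped between neighbours in this order. Lmx1a (0.435 ± 0.229) and Alx1 (0.286 ± 0.099) were lowest. The order was another in SVZ, where Fli1 led (1.52 ± 0.62 RPKM), followed by Zic1 (0.616 ± 0.125) and Ebf1 (0.257 ± 0.085). Erg and Sox18 were at 0.0454 ± 0.0430 and 0.0390 ± 0.0160 RPKM in SVZ.

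Erg (ENSMUSG00000040732, chromosome 16, 95359169 to 95586593 of mm10, minus strand) is the ETS factor most closely tied to endothelial identity. It had 317, 225, 411, 216 and 271 reads in DG 1 to DG 5, against 12, 4, 2 and 2 reads in SVZ 1 to SVZ 4. DG 3 was the highest library of its region and SVZ 1 the highest of the other, the same 2 libraries in which endothelial markers were highest. On the log2 CPM scale Erg averaged 2.94 ± 0.41 in DG libraries and -2.72 ± 1.01 in SVZ libraries, a difference of 5.66 (SE 0.44). The pooled reads, 1440 in DG and 20 in SVZ, gave a ratio of 49.9, with a 95% counting interval of 32.2 to 81.9. Of the 20 reads, 12 were in SVZ 1, and without that library the ratio was 93.4.

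Sox18 (ENSMUSG00000046470, chromosome 2, 181669836 to 181671640, minus strand), a SoxF factor of arterial and lymphatic endothelium, had 82, 82, 160, 87 and 139 reads in DG 1 to DG 5. It had 3, 2, 2 and 1 reads in SVZ 1 to SVZ 4. DG 3 was again the highest library, and with 8 reads over all of SVZ the gene was close to the limit of detection there. The pooled ratio was 47.6 (95% counting interval 24.0 to 111), and the fitted log2 difference 5.03 (SE 0.34).

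Relative to endothelial markers, reads of both genes had overlapping ranges in the 2 regions, but the SVZ ratios rest on few reads. SVZ libraries had 2 to 12 reads of Erg and 1 to 3 reads of Sox18. Per 1000 reads of the 18 markers, Erg had 2.80 to 3.81 reads in DG (median 3.13) and 1.78 to 4.43 in SVZ (median 2.47), and the ranges overlapped. Sox18 had 0.985 to 1.61 (median 1.17) in DG and 0.730 to 2.22 (median 1.45) in SVZ. The markers themselves summed to 1895 to 3747 CPM in DG and 29.0 to 129 CPM in SVZ, a ratio of means of 44.5 (78.7 without SVZ 1), and none of the 18 was without reads in SVZ. The 3 genes whose profile over the 9 libraries was most like that of Erg, by root mean square difference of centred log2 CPM, were Nostrin (0.197), Cd93 (0.198) and Itm2a (0.286), and Itm2a is among the 18 markers. With a prior count of 3 reads, 1 of these 3 was still among the nearest 3. The nearest to Sox18 were Bhlhe22 (0.314), Flvcr2 (0.330) and Sgms1 (0.350), and with the larger prior count 0 of the 3 were.

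Fli1 (ENSMUSG00000016087, chromosome 9, 32422204 to 32542861, minus strand), the closest ETS relative of Erg, is also expressed by blood and microglial cells. It had 1435, 1146, 2446, 1020 and 1243 reads in DG 1 to DG 5 and 108, 124, 176 and 268 reads in SVZ 1 to SVZ 4. In DG the highest library was DG 3, as for Erg, but in SVZ the highest library was SVZ 4 and the lowest SVZ 1, where Erg was highest. Fli1 averaged 5.24 ± 0.52 log2 CPM in DG and 2.33 ± 0.56 in SVZ, a difference of 2.91 (SE 0.31), or 7.54-fold.

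Reads of Fli1 per read of Erg were 4.53, 5.09, 5.95, 4.72 and 4.59 in DG 1 to DG 5, and 9.00, 31.0, 88.0 and 134 in SVZ 1 to SVZ 4. The DG values were close together and all below the SVZ values, which rest on 2 to 12 reads of Erg. Per 1000 endothelial marker reads, Fli1 had 14.3 to 17.9 reads in DG, against 26.3 in SVZ 1 and 137 to 239 in the other SVZ libraries. The sum of 10 microglial markers was 251 to 895 CPM in DG. In SVZ it was 197, 514, 696 and 1102 CPM in SVZ 1 to SVZ 4, the same order as Fli1. Per 1000 reads of these microglial markers Fli1 had 47.7 to 127 reads in DG and, in SVZ 1 to SVZ 4, 17.2, 7.75, 8.02 and 7.48. What part microglial RNA had in the Fli1 level of SVZ was not tested. Genes with the most similar profile were Gpr160 (0.182), Dock10 (0.237) and Arap3 (0.290).

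**Figure D2:**
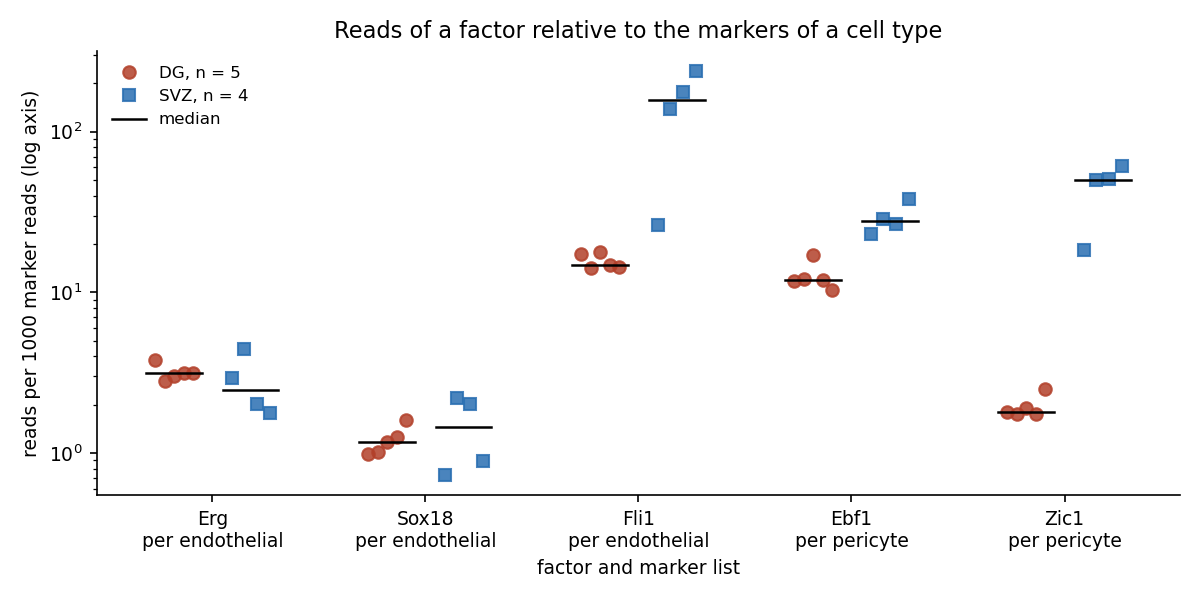
Reads of 5 factors per 1000 reads of the endothelial or pericyte markers in each DG library (circles) and SVZ library (squares), on a log axis, with the median as a bar. Erg and Sox18 overlap between the regions, whereas Fli1, Ebf1 and Zic1 lie higher per marker read in all SVZ libraries, with SVZ 1 the lowest SVZ point of each of the 3.

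Ebf1 (ENSMUSG00000057098, chromosome 11, 44617317 to 45008091, plus strand) had the most reads of the 8 genes in DG, with 4650, 5731, 4949, 4492 and 2636 reads in DG 1 to DG 5. It had 116, 52, 69 and 83 reads in SVZ 1 to SVZ 4. DG 5 was low, at 6.001 log2 CPM against 6.95 to 7.32 in the other DG libraries, and SVZ 1 was the highest of its region. The means were 6.89 ± 0.52 log2 CPM in DG and 1.29 ± 0.46 in SVZ, a difference of 5.60 (SE 0.28), or 48.6-fold.

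Within DG, Ebf1 and the pericyte markers were both highest in DG 2 and lowest in DG 5. In DG 5 the gene was 0.89 below its DG mean on the log2 scale and the summed pericyte markers 0.63 below theirs, and smooth muscle markers (0.47 below) and fibroblast and meningeal markers (0.54 below) were lowest there too. Per 1000 pericyte marker reads, Ebf1 had 10.4 to 17.1 reads in DG (median 11.9) and 23.2 to 38.1 in SVZ (median 27.7), without overlap. The 12 pericyte markers summed to 6148 to 13117 CPM in DG and 58.2 to 157 CPM in SVZ, a ratio of means of 109, which exceeded that of Ebf1. Without the most abundant marker the mean was 22.6 in DG and 44.4 in SVZ, so the size of this ratio depends on the list. Per 1000 fibroblast and meningeal marker reads the order was the other way, with 158 to 247 reads of Ebf1 in DG and 52.1 to 115 in SVZ, also without overlap. Without the most abundant marker of that list the ranges did overlap, at 252 to 317 in DG and 147 to 271 in SVZ. The genes most like Ebf1 in profile were Inpp4b (0.204), Npy1r (0.232) and Alx1 (0.264), and 2 of the 3 were nearest also with a prior count of 3 reads.

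**Figure D3:**
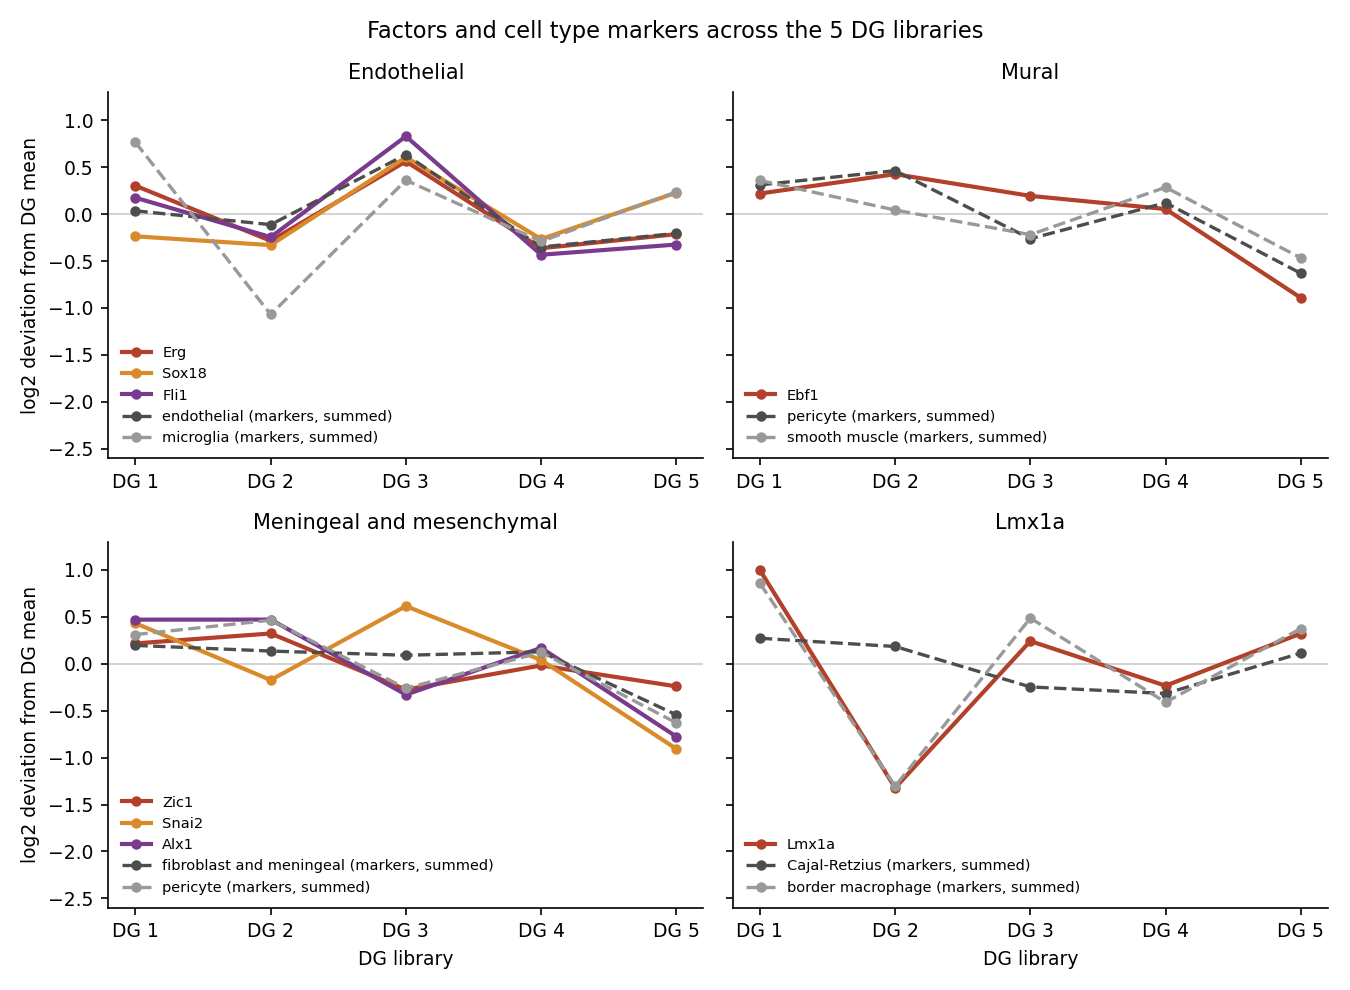
Deviation of each factor (solid lines, log2 CPM) and of summed cell type markers (dashed lines, log2 of summed CPM) from their mean over the 5 DG libraries. The lines join values of one gene or list and carry no order. Endothelial factors peak with endothelial markers in DG 3, Ebf1, Alx1 and the pericyte, smooth muscle and fibroblast markers are lowest in DG 5, and Lmx1a, border macrophage and microglial markers are lowest in DG 2.

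Zic1 (ENSMUSG00000032368, chromosome 9, 91358058 to 91365810, minus strand) had the smallest difference of the 8. It had 716, 823, 551, 659 and 638 reads in DG 1 to DG 5, against 92, 90, 131 and 133 reads in SVZ 1 to SVZ 4. The DG libraries lay close together and SVZ 1, high for Erg and Ebf1, was not high for Zic1. The means were 4.20 ± 0.27 log2 CPM in DG and 1.80 ± 0.29 in SVZ, a difference of 2.40 (SE 0.19), or 5.28-fold.

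Zic1 had 1.75 to 2.52 reads per 1000 pericyte marker reads in DG and 18.4 to 61.0 in SVZ. Per 1000 reads of the 12 fibroblast and meningeal markers, whose sum was 404 to 675 CPM in DG and 22.3 to 32.2 CPM in SVZ, it had 24.1 to 38.4 reads in DG and 89.5 to 184 in SVZ. Both ratios were higher in every SVZ library than in any DG library, and the cells that carry the SVZ reads were not tested. Zic4, its divergent neighbour on the opposite strand, shares 60 of 5693 exon bases (1.05%) with it, and the libraries do not mark the strand. Zic4 had 1.16 to 1.70 reads per read of Zic1 in DG and 1.29 to 2.29 in SVZ, with overlapping ranges. The genes most like Zic1 in profile were Zfp503 (0.164), Manba (0.174) and Nr1d1 (0.192).

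Snai2 (ENSMUSG00000022676, chromosome 16, 14705852 to 14709385, plus strand) had 113, 79, 139, 93 and 54 reads in DG 1 to DG 5. In SVZ it had 1 read, in SVZ 4, and none in SVZ 1 to SVZ 3. The pooled ratio of 478 reads in DG to 1 read in SVZ was 331, with a 95% counting interval of 59.1 to 13101, so its size is not known beyond the lower bound. DG 3 was highest and DG 5 lowest. Per 1000 fibroblast and meningeal marker reads, Snai2 had 3.25 to 6.09 reads in DG and 0 to 1.38 in SVZ. The most similar profiles, at a larger distance than for the genes above, were those of Tmem204 (0.409), Ushbp1 (0.459) and Cd209a (0.470), and 0 of the 3 were among the nearest with a prior count of 3 reads, since the SVZ level of the gene is set by that constant.

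Alx1 (ENSMUSG00000036602, chromosome 10, 102998707 to 103030215, minus strand) had 73, 78, 45, 64 and 37 reads in DG 1 to DG 5. Its only SVZ read was in SVZ 1. The pooled ratio of 297 reads to 1 was 206 (95% counting interval 36.6 to 8150). In DG its reads per 1000 pericyte marker reads lay between 0.146 and 0.184, a narrower relative range than per 1000 fibroblast and meningeal marker reads (1.97 to 3.36). The most similar profiles were those of Pcdh12 (0.111), Lama4 (0.146), which encodes a laminin chain of vessel basement membranes, and Mustn1 (0.215), again with 0 of the 3 among the nearest at a prior count of 3 reads. The noncoding gene Gm17028, on the same strand, covers 243 of its 5756 exon bases (4.22%), so a small share of its reads could belong to either.

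Lmx1a (ENSMUSG00000026686, chromosome 1, 167689237 to 167848741, plus strand) varied most within DG, with 88, 18, 56, 40 and 67 reads in DG 1 to DG 5. It had 2 reads in SVZ 1, 1 read in SVZ 4 and none in the other SVZ libraries. The pooled ratio was 62.1 (95% counting interval 21.0 to 303), and without SVZ 1, which leaves 1 SVZ read, it was 139.5. DG 2 was the lowest DG library, at -0.92 log2 CPM against 0.17 to 1.40 in the others. The summed CPM of the 4 measured choroid plexus markers was highest there (183 CPM in DG 2, against 3.54 to 26.9 CPM in the other DG libraries), where Lmx1a was lowest. Nearly all of the DG 2 sum was a single marker. Lmx1a had 2.74 reads per 1000 of these marker reads in DG 2, and 97.8 without the most abundant marker. In the other DG libraries the latter ratio was 625 to 2154. On the log2 scale, Lmx1a and the summed markers deviated from their DG means in opposite directions in DG 1 (1.00 for Lmx1a, -0.99 for the markers) and DG 3 (0.24 and -1.99), as in DG 2. In DG 5 both were above their DG mean (0.32 and 0.93) and in DG 4 both were below it (-0.23 and -1.65). Of the choroid plexus list, Kl, Aqp1, Kcnj13 and Slc4a5 were not analysed here.

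Lmx1a and 3 marker lists were lowest in DG 2 and highest in DG 1, namely those of border macrophages (the macrophages of meninges and vessels), microglia and the oligodendrocyte lineage. Border macrophage markers summed to 918, 205, 709, 381 and 657 CPM in DG 1 to DG 5 and to 4.47 to 17.7 CPM in SVZ, and all 7 were measured. The deviations from the DG mean, on the log2 scale, were 1.00, -1.32, 0.24, -0.23 and 0.32 for Lmx1a and 0.86, -1.30, 0.48, -0.41 and 0.37 for border macrophage markers. They were 0.76, -1.07, 0.36, -0.29 and 0.24 for microglial markers and 0.40, -0.32, -0.04, -0.31 and 0.26 for oligodendrocyte lineage markers. The gene most like Lmx1a in profile was Dab2 (0.447), followed by Rnf43 (0.493) and Npr1 (0.507), of which 1 was among the nearest 3 with a prior count of 3 reads. Whether Lmx1a reads came from any of these cells was not tested, and DG 2 has 18 of them. The summed CPM of the 4 measured Cajal-Retzius markers (321 to 482 CPM in DG, 16.8 to 29.1 in SVZ) was second highest in DG 2. Most of that sum was a single marker. Lmx1a had 1.10 reads per 1000 of these marker reads in DG 2, and 25.4 without the most abundant marker. By the mean log2 CPM of the 4 markers, DG 2 (3.87) was below DG 3 (4.24) and DG 1 (4.01). Trp73, Lhx1 and Lhx5 of this list were not analysed here.

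The log2 differences of the low genes depend on the constant added before the logarithm. On log2(CPM + 1) they were 2.91 for Erg, 1.88 for Sox18, 1.81 for Snai2, 1.36 for Alx1 and 1.22 for Lmx1a. With a prior count of 3 reads they were 4.32 for Sox18, 4.78 for Snai2, 4.14 for Alx1 and 3.70 for Lmx1a, and with voom weights they were 6.90 for Snai2 and 6.23 for Alx1. Sequence shared with other genes is small for all 8, at most 3.29% of the 50-base words of their transcripts (Alx1) and 0% for Erg, Ebf1 and Sox18.

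Other transcription factors of endothelial cells were mostly higher in DG. Of 32 listed, 8 had no row and 3 are described above. Of the other 21, 19 were higher in DG, none was lower and 2 did not pass the test (limma, Benjamini-Hochberg adjusted p under 0.05), with a median log2 difference of 2.96. Of all 14477 genes, 32.9% were higher in DG and 33.7% were lower, and the median log2 difference was -0.075. Of the 21, 6 exceeded 1 CPM in no SVZ library and had to differ to be in the table. Hey2, a Notch effector of arteries, had 611 to 833 reads in DG and 83 to 92 in SVZ (2.78, SE 0.18, adjusted p = 2.64e-07 by limma). Tbx3, a T-box factor and one of these 6, had 451 to 839 reads in DG and 9 to 30 in SVZ, a log2 difference of 5.05. Lef1, a Wnt effector active in brain endothelium, had 948 to 1469 reads in DG and 104 to 182 in SVZ, a 7.77-fold difference. Which cells carry the reads of Hey2, Tbx3 and Lef1 was not tested. The 2 genes that did not pass were Etv6 (-0.11, adjusted p = 0.493) and Hey1 (1.15, adjusted p = 0.0782).

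The genes that ETS and SoxF factors are described to activate in endothelium were higher in DG throughout the list. Most of them, with Emcn, Esam and Egfl7, are also among the 18 endothelial markers, so this result is not separate from the marker sums. Whether the factors act on these genes here was not tested. All 20 listed genes were measured, and 20 of 20 passed the test in that direction, against 32.9% of all genes. The median log2 difference was 5.78. Of the 20, 2 exceeded 1 CPM in no SVZ library and had to differ to be in the table. Emcn, an endothelial sialomucin, had 2608 to 3885 reads in DG and 17 to 68 in SVZ (6.37, SE 0.33, adjusted p = 5.69e-08 by limma). Esam, an adhesion molecule of endothelial junctions, had 10942 to 15603 reads in DG and 77 to 406 in SVZ (6.58, SE 0.42). Egfl7, a secreted protein of vessels, was 29.4-fold higher in DG. The smallest difference in the list was that of Dll4, a Notch ligand of arteries, at 440 to 649 reads in DG and 262 to 405 in SVZ (0.58, adjusted p = 0.0250 by limma), and its call was lost without DG 1, DG 2, DG 4, SVZ 3 or SVZ 4.

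**Figure D4:**
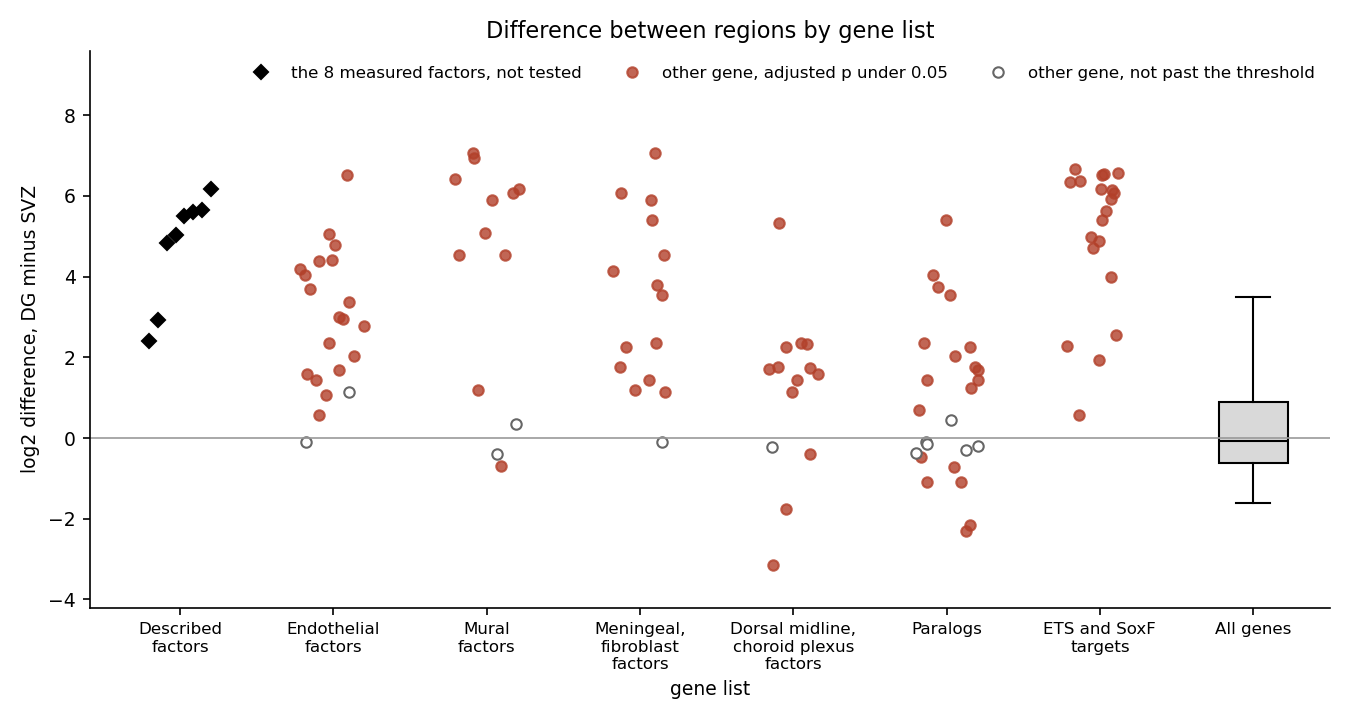
Log2 difference (DG minus SVZ) of the 8 measured factors (diamonds, not tested) and of the other genes in each list (filled circles past the limma threshold, open circles not), beside all 14477 genes (box with median and quartiles, whiskers at percentiles 5 and 95). Most genes of the endothelial, mural and meningeal lists lie above 0, and paralogs lie on both sides.

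Of 20 listed mural cell factors, 6 had no row and Ebf1 is described above. Of the other 13, 10 were higher in DG, 1 was lower and 2 did not pass, with a median of 5.09. Of all genes, 32.9% were higher in DG and 33.7% were lower. Of the 13, 8 exceeded 1 CPM in no SVZ library and had to differ to be in the table. Among the rest, Heyl and Prrx1 were higher, Srf was lower, and Tead2 and Mef2d did not pass. Heyl, a Notch3 effector of mural cells, had 8179 to 14744 reads in DG and 87 to 218 in SVZ, an 86.2-fold difference (6.43, SE 0.29, adjusted p = 2.85e-08 by limma). Foxs1, a forkhead factor of pericytes and one of these 8, had 1145 to 2213 reads in DG and 4 to 25 in SVZ, a log2 difference of 6.93. Foxf2, a forkhead factor of brain pericytes, had 105 to 211 reads in DG and 0 to 2 in SVZ. The gene lower in DG was Srf, a broadly expressed factor that drives muscle and immediate early genes (146 to 245 reads in DG, 174 to 361 in SVZ, -0.70, adjusted p = 0.0271 by limma). Its call was lost without DG 4, DG 5, SVZ 3 or SVZ 4, and with the replicate number as a block. With only genes of a mean of at least 1 log2 CPM, 3 genes of the list were higher in DG.

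Of 32 listed meningeal and fibroblast factors, 14 had no row and 3 are described above. Of the other 15, 14 were higher in DG, none was lower and Foxp1 did not pass (-0.09, adjusted p = 0.556 by limma). The median was 3.54, and over all genes 32.9% were higher in DG and 33.7% lower. Of the 15, 9 exceeded 1 CPM in no SVZ library and had to differ to be in the table. With only genes of a mean of at least 1 log2 CPM, the count higher in DG was 6. Foxc1, a forkhead factor that meninges need to form, had 153 to 309 reads in DG, against 6 reads in SVZ 1 and 0 in the other SVZ libraries (7.06, or 7.78 without SVZ 1). Foxd1, another forkhead factor, had 442 reads over DG and 1 over SVZ, a ratio of 306 with a 95% counting interval of 54.6 to 12116. Zic5 had 947 to 1370 reads in DG and 150 to 229 in SVZ (2.36, SE 0.16, adjusted p = 3.74e-07). Snai1, the paralog of Snai2, had 126 to 322 reads in DG and 1 to 9 in SVZ, and Alx4, a paralog of Alx1, had 71 to 132 in DG and 4 to 9 in SVZ.

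Factors of the dorsal midline and choroid plexus were split. Of 24 listed, 8 had no row and 2 are described above. Of the other 14, 10 were higher in DG, 3 were lower and 1 did not pass, with a median of 1.65. These are 71.4% higher and 21.4% lower, against 32.9% and 33.7% of all genes, so the share lower was below that of all genes. Of the 14, 2 exceeded 1 CPM in no SVZ library, Dmrt3 among them, and had to differ to be in the table. Lhx2, a selector gene of the cortex that borders the hem, had 2519 to 3836 reads in DG and 457 to 703 in SVZ (2.33, SE 0.15, adjusted p = 2.34e-07 by limma). Dmrt3, a factor of the dorsal telencephalon, had 376 reads over DG and 3 over SVZ, a ratio of 86.8 (95% counting interval 29.5 to 423). Foxj1, the factor of motile cilia, had 14 to 33 reads in DG against 48 to 294 in SVZ. The 8 ependymal markers, Foxj1 among them, summed to 51.7 to 74.3 CPM in DG and 130 to 343 CPM in SVZ. Foxj1 was lower in DG (-3.15, SE 0.50, adjusted p = 0.000207 by limma). Otx2, a factor of choroid plexus, was lower too (10 to 49 reads in DG, 34 to 97 in SVZ, -1.77, adjusted p = 0.0135 by limma). With the replicate number as a block, which drops DG 5, the Otx2 difference was -1.49 and its call was lost. Rfx3, a ciliary factor, differed by -0.40 (adjusted p = 0.0277 by limma). The Rfx3 call was lost under scaling by trimmed mean of M values (TMM), with the same block, and without DG 1, DG 5, SVZ 1 or SVZ 4.

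Paralogs of the described genes, some of which also stand in the lists above, did not share one direction. Of 40 listed, 15 had no row, and of 25 tested 13 were higher in DG, 6 were lower and 6 did not pass, with a median of 0.68. These are 52% higher and 24% lower, against 32.9% and 33.7% of all genes, so the share lower was below that of all genes. Of the 13, Sox7, Snai1 and Alx4 exceeded 1 CPM in no SVZ library and had to differ to be in the table. In the ETS family, Etv4 (3.74), Ets2 (2.03), Elk3 (1.69), Ets1 (1.45), Elf1 (1.25) and Etv5 (0.68) were higher in DG. Etv1 (-2.30, SE 0.20, adjusted p = 2.42e-06 by limma), Elk1 (-0.72) and Elf2 (-0.47) were lower. Ets1 had the most reads of these ETS genes in DG, at 6816 to 14079 in DG and 2628 to 3336 in SVZ. Sox7, the third SoxF gene, had 131 to 269 reads in DG and 3 to 19 in SVZ, a log2 difference of 4.05. Zic2 (1.77), Zic4 (2.26) and Zic5 (2.36) were higher in DG, beside the 2.40 of Zic1.

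The zinc finger and homeobox factors that, like the Snail proteins, repress E-cadherin went the other way from them. Zeb1 had 5736 to 7997 reads in DG and 11183 to 15799 in SVZ (-1.10, SE 0.14, adjusted p = 4.35e-05 by limma). Zeb2 had 6668 to 8706 reads in DG and 12496 to 15475 in SVZ (-1.08, SE 0.12, adjusted p = 1.73e-05). Scrt1, a neuronal Snail family member, was lower in DG as well (5 to 14 reads in DG, 38 to 50 in SVZ, -2.17), and Scrt2 did not pass (-0.19, adjusted p = 0.223). Snai1, which had to differ to be in the table, had a log2 difference of 5.40. Neuroblast markers summed to 5533 to 8514 CPM in DG and 20596 to 24136 CPM in SVZ, and their part in the Zeb1 and Zeb2 levels was not tested.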

How the data were processed

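Libraries of full-length cDNA, primed on poly-dT, extended by template switching and carrying no molecular identifiers, were prepared from sorted cells per the labels' protocols. The kit does not mark the strand. The submitters' processing notes name STAR, edgeR and mm10. For versions, the counter, the annotation and the filter, the sources used here give nothing. The deposited values are log2 CPM, with 1 read added as a prior count in proportion to the library total, as inferred from the values: the formula gave them back within 5.33e-14. Reads recovered from them were whole for 100% of values (tolerance 0.001), and intervals cover counting error only. All 14477 genes were fitted with limma 3.58.1 (R 4.3.3, mean-variance trend, tissue as the only term, DG minus SVZ, Benjamini-Hochberg adjusted p under 0.05). The fit was also run on simulated reads in which few genes differed. In the data 66.6% of genes were called, so the simulation does not cover this setting. The count test planned for raw counts was not used because the unit is log2. Replicates of a region were farther apart than counting error allows (a chi-square statistic of 19.4 to 172 times its degrees of freedom). Symbols, exon lengths and overlaps are from GENCODE M21, and 14428 identifiers matched a symbol.

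The described genes and all lists were chosen with earlier results of these data known. Named genes were all described genes, up to 3 others per list and direction with the smallest adjusted p, and the 3 most similar profiles per described gene. Other list members are named as examples chosen after their values were seen. Marker lists were endothelial, pericyte, smooth muscle, fibroblast and meningeal, microglial, border macrophage, choroid plexus, Cajal-Retzius, ependymal, neuroblast, astroglial, neuron and oligodendrocyte lineage markers. Alternatives were TMM scaling, other constants, a filter on low values, no trend, voom weights, a replicate block and leaving out each library. Leaving out libraries from the pooled ratios and marker sums, and nearest profiles with a prior count of 3 reads, were added after seeing the data.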

Additional observations from a re-analysis of the deposited data

Results flagged for a closer look

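Of the 16 sets of values tested (8 genes in 2 regions), 3 had a library farther from the nearest of the others than Dixon's 95% limit allows, where chance gives about 1 in 20. Ebf1 in DG 5 was low, at 6.001 log2 CPM (2636 reads), with a gap of 0.718 of the group's range. Snai2 in SVZ 4, at -4.066 log2 CPM, and Alx1 in SVZ 1, at -4.051 log2 CPM, were each set apart by 1 read where the other SVZ libraries had none. Any single read so placed passes the limit, so the rate of 1 in 20 does not apply to these sets.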

How the results depend on the processing

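All differences of the described genes and of the named genes that passed the test kept their sign under every alternative run. The ranges were 5.12 to 5.83 for Ebf1, 2.12 to 2.49 for Zic1 and 2.69 to 3.15 for Fli1, and the filter on a mean of at least 1 log2 CPM removed the other 5. That filter left 3 mural and 6 meningeal factors higher in DG, and 1 dorsal midline factor lower in DG because it removes genes of low mean. Same-numbered DG and SVZ libraries did not deviate together (correlations -0.173 to 0.00727). Whether the numbers pair libraries of the same animals cannot be told from this, because libraries of 2 different regions need not deviate together. With the replicate block, which drops DG 5, 4513 genes were higher and 4284 lower in DG, 0 mural and 1 dorsal midline factor were lower, and the calls of Srf, Otx2 and Rfx3 were lost. Leaving out 1 library at a time gave 4522 to 4775 genes higher and 4448 to 4820 lower in DG, 0 to 1 mural factors lower and 2 to 3 dorsal midline factors lower. TMM scaling moved the median of all genes to -0.02 from -0.07 and gave 5008 genes higher and 4476 lower. The counts of SVZ reads, 1 to 20 over 4 libraries for 5 of the genes, limit the size of their ratios.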

Other observations

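Summed markers of 4 further lists are given for the same libraries. Smooth muscle markers summed to 587 to 1040 CPM in DG and 28.1 to 71.9 CPM in SVZ. Astroglial stem cell markers summed to 17269 to 26025 CPM in DG and 1978 to 3641 CPM in SVZ. Neuron markers summed to 1040 to 1379 CPM in DG and 345 to 440 CPM in SVZ, with the highest sum in DG 3, and oligodendrocyte lineage markers to 4102 to 6752 CPM in DG and 1387 to 2672 CPM in SVZ.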
